A study of Drosophila melanogaster with 2 samples.

Results

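The genes described here drive the cell cycle and DNA replication: cyclins and their kinases, the E2F transcription factors and their regulators, checkpoint kinases, origin and helicase proteins, enzymes that supply nucleotides, and regulators of mitosis. They were taken from a list of symbols in the Ensembl annotation of the Drosophila melanogaster genome, and all 39 listed genes were found among the 13968 protein-coding genes on the chromosome arms. The binding data are peak lists from chromatin immunoprecipitation followed by sequencing (ChIP-seq). A transgenic fly line expressed a fusion of the CG8765 protein with green fluorescent protein (eGFP), and an antibody to GFP pulled down the fusion from sonicated chromatin of whole embryos 0 to 8 hours old. There were 2 biological replicates, both of the same line, stage and treatment, with fragments of 200 to 800 bp, so no condition could be compared with another. A control experiment that the labels name was not read here on its own. The authors derived the series' lists from both replicates and a control. The peaks report the tagged fusion protein, and whole embryos mix all cell types, so strong binding in few cells and weak binding in many cannot be told apart.

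In the fly, origins are licensed when the origin recognition complex, Cdt1 (encoded by dup) and other loading factors place the Mcm helicase on DNA, and geminin holds Cdt1 back afterwards. Cyclin E with Cdk2 starts S phase, in part by freeing E2F1 and its partner Dp from the retinoblastoma protein Rbf, and E2F1 with Dp then activates genes for replication and nucleotide synthesis. Cyclins A, B and B3 with Cdk1 drive mitosis after the phosphatase String has activated Cdk1. The first embryonic divisions are rapid and run on maternal products, after which the cycle slows and zygotic transcription of string comes to time mitosis. In fly promoters, the DNA replication-related element (DRE) and E2F sites are sequence elements known from genes of proliferation.

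The reference sequence under the summits that the results turn on is shown first, so that the peaks can be read beside their DNA. A summit is the position of highest signal that the authors gave for a peak, and a transcription start site is written TSS. All stretches are from the RefSeq genome of assembly Release 6, the same build as dm6, written 5′ to 3′ on the gene's own strand, and none overlaps an annotated exon. Capitals mark letters of the motifs searched: TATCGATA for the DRE, TTTGGCGC or TTTCGCGC for E2F, TATAAA for the TATA box, CAGCNCTA or CAGCNCTG for core promoter motif 7, and CGATA, the core recognised by the insulator protein BEAF-32, each on both strands. The DRE contains CGATA, so every DRE is also a match of that shorter motif. The first stretch is the whole interval between the divergent start sites of TH1 and mei-41, chrX:16391439-16391697 on the plus strand, which held the strongest start-site peak among the 39 genes in the conservative list. The second, chr3R:8264876-8264969 on the plus strand, runs from 60 bp before the Mcm2 summit to the base before the Mcm2 TSS. The third, chr3R:11962865-11962985 on the plus strand, is centred on the aurA summit. The next 2, chr3R:21641645-21641765 and chr3R:21629944-21630064 on the minus strand, are centred on intronic E2f1 summits of very different base composition. The last, chr2L:15741517-15741637 on the minus strand, is centred on the strongest CycE summit, also in an intron. The DRE of Orc5, chr2L:13829756-13829785 on the plus strand, is added as an element whose promoter held no thresholded peak.
mei-41: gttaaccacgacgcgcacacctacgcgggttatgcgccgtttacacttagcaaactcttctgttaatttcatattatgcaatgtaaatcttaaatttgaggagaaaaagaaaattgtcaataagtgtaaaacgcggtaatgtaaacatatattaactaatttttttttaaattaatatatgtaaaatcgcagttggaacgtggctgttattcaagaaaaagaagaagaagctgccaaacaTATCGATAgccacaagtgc
Mcm2: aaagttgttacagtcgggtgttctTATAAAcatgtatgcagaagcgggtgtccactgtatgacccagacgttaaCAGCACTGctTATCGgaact
aurA: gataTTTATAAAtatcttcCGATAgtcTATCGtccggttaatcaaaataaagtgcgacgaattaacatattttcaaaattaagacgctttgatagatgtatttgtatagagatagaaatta
E2f1 upstream intron: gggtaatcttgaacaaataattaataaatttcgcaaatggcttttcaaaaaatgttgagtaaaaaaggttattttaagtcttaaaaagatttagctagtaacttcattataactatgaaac
E2f1 downstream intron: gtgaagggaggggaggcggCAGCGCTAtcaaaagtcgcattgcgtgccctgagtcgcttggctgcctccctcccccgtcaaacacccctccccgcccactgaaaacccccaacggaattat
CycE intron: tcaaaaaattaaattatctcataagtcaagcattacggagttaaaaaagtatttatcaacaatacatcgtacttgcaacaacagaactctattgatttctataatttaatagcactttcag
Orc5 DRE: ttatttcgttaTATCGATAtttttcgattg
The mei-41 interval has 34% G and C, and its only DRE lies with its centre 15 bp upstream of the mei-41 TSS, 127 bp from the summit. The upstream E2f1 stretch has 24% G and C and no motif searched, whereas the downstream stretch has 62% and 1 motif 7. The aurA stretch has 27.3% G and C and holds a TATA box beside 2 CGATA cores on opposite strands.

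In all, 10 of the 39 genes, or 25.6%, had a summit at most 500 bp from a TSS in the authors' strictest list of peaks for the series, called the conservative list here. The same rule called 10.5% of all protein-coding genes. The 10 genes were mei-41, RnrS, Dp, dpa, geminin, stg, Mcm2, BubR1, aurA and dup. They cover every role: 4 of 12 origin and helicase genes, 1 of 11 cyclin, kinase and phosphatase genes, 1 of 4 E2F and Rb genes, 1 of 3 checkpoint genes, 1 of 3 genes of nucleotide supply and the replication clamp, and 2 of 6 mitotic genes. The differences between these role counts were not tested.

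Support from the replicates was uneven. A less strict series list showed a TSS summit for 12 of the 39 genes, against 12.3% of all protein-coding genes, and it added CycE and Cdk1. In replicate 1's own thresholded list 8 genes had a TSS summit (CycB, mei-41, Mcm2, dpa, geminin, RnrS, polo and BubR1), against 8.35% of all genes. In replicate 2's own list 5 had one (Cdk1, Dp, mei-41, dup and RnrS), against 8.78% of all genes. Only mei-41 and RnrS were in both, 5.13% of the 39 genes against a background of 5.73%, so by this rule the genes stood at the background. Of the 13 conservative peaks at these start sites, 2 overlapped a peak in both replicates' thresholded lists and 5 overlapped a peak in neither. For all 2132 conservative peaks on the arms, the shares were 46.2% and 17.3%. Only 1149 of those peaks were at a TSS, and the shares were not computed for TSS peaks alone. Counting every thresholded list, 14 of the 39 genes had a TSS summit in at least 1. The share of all protein-coding genes under this combined rule was not computed, so the count is not read against a background.

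**Figure D1:**
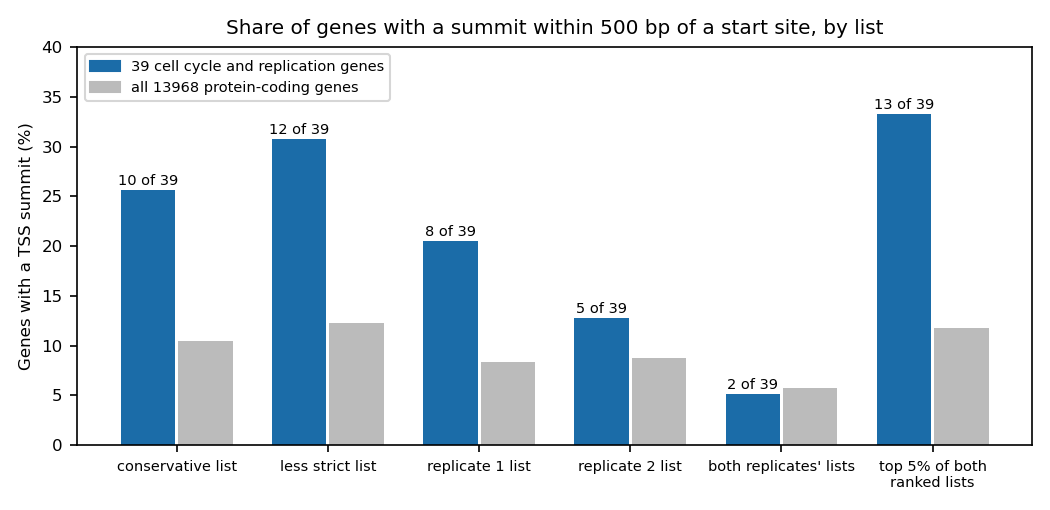
Share of genes (%) with a summit within 500 bp of a TSS, for the 39 cell cycle and replication genes (blue, with counts) and all 13968 protein-coding genes (grey), in each list. The blue bars exceed the grey ones in the conservative list (25.6% against 10.5%) and in the top 5% of both ranked lists (33.3% against 11.8%), but not for genes in both replicates' thresholded lists (5.13% against 5.73%).

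The ranked lists, which hold many more peaks than the thresholded lists, put more of the genes side by side. They may not hold every candidate, since the Cdk1 peak of the less strict list is missing from the series' ranked list. In replicate 1, 32 of the 39 genes had a ranked peak at a TSS, against 71.8% of all genes, and in replicate 2 there were 33, against 79.2%. Where a gene had such a peak, its strongest one lay at a median rank of 3.91% down the list of 108098 peaks in replicate 1 and 4.51% down the list of 127098 in replicate 2. The medians over all protein-coding genes with a peak were 23.2% and 21.4%, so most of these genes sat well above the typical gene in both replicates. Within the top 5% of both lists were 13 of the 39 genes, against 11.8% of all genes. They were the 10 genes of the conservative list together with E2f1, Cdk4 and fzr. The conservative list was itself derived from both replicates, so high ranks of its 10 genes in both are not independent support. A further 10 genes reached the top 5% in 1 replicate, and 16 in neither. Of those 16, CycD, Mcm3, Mcm7 and RnrL had no ranked TSS peak in either replicate.

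**Figure D2:**
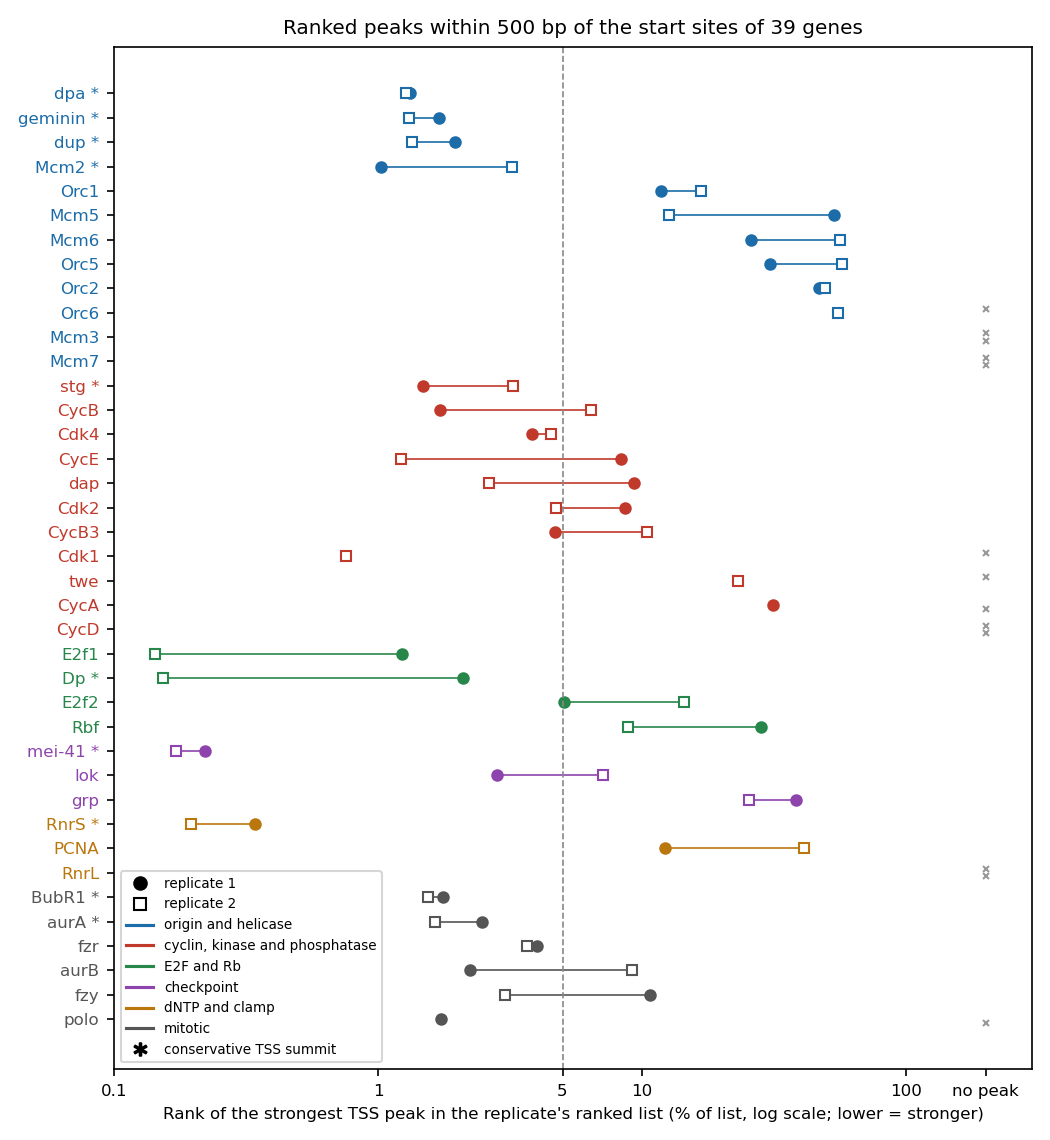
Rank of the strongest peak within 500 bp of a TSS in each replicate's ranked list, as a percent of the list on a log axis (left is stronger), for all 39 genes coloured by role. Circles are replicate 1, squares replicate 2, crosses mark no peak, asterisks mark a conservative TSS summit and the dashed line is 5%. The 10 genes with an asterisk all lie left of the line in both replicates, and E2f1, Cdk4 and fzr lie there without one. The conservative list was itself derived from both replicates, so the position of the 10 is not independent support.

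Both licensing genes, dup (Cdt1) and geminin (its inhibitor), and 2 of the 6 Mcm helicase genes, Mcm2 and dpa (Mcm4), had conservative TSS peaks. None of the 4 origin recognition complex genes had a TSS peak in any thresholded list. Of all protein-coding genes, 10.5% had a TSS summit in the conservative list and 12.3% in the less strict list. With so few genes, a count of 0 of 4 cannot be set apart from these shares. The differences between these counts were not tested. The dpa peak (2R:7499831-7500154 on dm6) had a signal of 101.7 in the conservative list, 46.9 in replicate 1 and 47.8 in replicate 2, the last values at ranks 1432 and 1624. Its summit lay 116 bp upstream of the nearest dpa TSS, in an exon of a longer dpa transcript, and 154 bp upstream of the TSS of didum, which encodes a myosin V. Signal here is the authors' value for a peak, scaled differently in each list, so levels are read within a list and replicates are compared by rank. By rank, dpa was alike in both replicates.

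The geminin peak (2R:6656194-6656517) had a signal of 89.4 in the conservative list, 40.5 in replicate 1 at rank 1834 and 47.3 in replicate 2 at rank 1662. Its summit lay 45 bp downstream of the TSS, in an exon, with no other gene's TSS within 500 bp. The Mcm2 peak (3R:8264774-8265097) had 82.4 in the conservative list, 55 in replicate 1 at rank 1113 and 32.7 in replicate 2 at rank 4099. Its summit lay 34 bp upstream of the TSS, in the sequence printed above, and the TSS of RPA1, the large subunit of the single-strand binding protein RPA, lay 485 bp away. Mcm2 stood higher in replicate 1, and its peak, like those of dpa and geminin, passed the threshold in that replicate alone.

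There were 2 conservative peaks at dup. One (2R:15381157-15381480) had a signal of 66.5 in the conservative list, 26.6 in replicate 1 at rank 4685 and 46.6 in replicate 2 at rank 1704. It lay 331 bp upstream of dup and 130 bp upstream of a TSS of SRPK, a kinase of splicing factors, inside the SRPK gene. The other (2R:15380490-15380813) had 65 in the conservative list, 37.3 in replicate 1 at rank 2123 and 30.3 in replicate 2 at rank 5539. Its summit was in an exon of dup, 38 bp upstream of the nearest dup TSS and 72 bp upstream of a TSS of SRPK. The replicates thus ordered the 2 summits oppositely, and both lay between or beside divergent start sites, so they cannot be assigned to dup alone.

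The other helicase genes had weak or no peaks. Mcm5 had 10.9 in replicate 1 at rank 57735 and 23.2 in replicate 2 at rank 16103. Mcm6 had 15.7 at rank 27890 and 12.1 at rank 71312. Mcm7 had no peak at its TSS in any list used, and Mcm3 had only a peak of signal 12.8 at rank 103069 of the 142775 in the series' ranked list. Among the origin recognition genes, Orc1 stood highest, with 20 in replicate 1 at rank 12781 and 21.3 in replicate 2 at rank 21382. Orc2 and Orc5 lay between 30.6% and 57% down the lists in both replicates, and Orc6 had a peak only in replicate 2, with 12.3 at rank 69989. The subunits of the Mcm ring therefore ran from the top 5% of both lists to no listed TSS peak. An absent peak says that none was listed at an unknown depth, not that the protein was absent there.

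Against 10.5% of all protein-coding genes, 1 of the 11 cyclin, kinase and phosphatase genes had a conservative TSS peak, stg. Its product String is the Cdc25 phosphatase that removes inhibitory phosphates from Cdk1. The peak (3R:29255111-29255434) had a signal of 84.1 in the conservative list, 44.2 in replicate 1 at rank 1601 and 32.6 in replicate 2 at rank 4136, with its summit in an exon 52 bp downstream of a TSS. A second listed interval (3R:29255362-29255685) overlapped the first and had a signal of only 2.76, among the lowest in the list, and neither interval overlapped a thresholded peak of either replicate. Another peak, in the less strict list alone, lay 433 bp upstream with a signal of 65.8, 38.3 in replicate 1 and 26.8 in replicate 2, nearer to the TSS of CG45544. twe, the Cdc25 of meiosis, had no ranked TSS peak in replicate 1 and 19.3 at rank 29247 in replicate 2.

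CycE, which encodes the cyclin of S phase entry, had its peaks inside the gene. The strongest (2L:15741415-15741738), in an intron 5033 bp from the nearest CycE TSS, had a signal of 110.2 in the conservative list, 76.3 in replicate 1 at rank 645 and 36 in replicate 2 at rank 3018. Its summit was nearer to the TSS of the noncoding gene lncRNA:CR44974. A second conservative peak (2L:15747096-15747419) lay 648 bp upstream of a TSS with a signal of 24.6, 26.8 in replicate 1 and no matched peak in replicate 2. An overlapping peak of the less strict list, with its summit 442 bp upstream of the same TSS, had 79.2, 22 in replicate 1 and 48.9 in replicate 2. Which of these overlapping intervals was listed thus decided whether CycE counted within 500 bp.

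The remaining cyclins and kinases reached no conservative peak. Cdk1, the mitotic kinase, had a peak in the less strict list (2L:10386340-10386663) with a signal of 103.5, no ranked peak in replicate 1 and 64.7 in replicate 2 at rank 965. The summit lay 240 bp upstream of Cdk1 and 160 bp upstream of mRpS7, a mitochondrial ribosomal protein gene, so the replicates differed between a strong peak and none. CycB, a mitotic cyclin, showed the opposite, with 40.2 in replicate 1 at rank 1855, past the threshold there, and 27.6 in replicate 2 at rank 8133. Cdk4, the partner of cyclin D, had 27.6 at rank 4144 and 30 at rank 5727 and was in the top 5% of both. Cdk2 had 21.8 and 29.7, dap (the inhibitor of cyclin E and Cdk2) had 21.3 and 34.8, and CycB3 had 25.9 and 24.4 in replicates 1 and 2, each in the top 5% of 1 list. CycA had 14.5 at rank 33958 in replicate 1 alone, and CycD had no TSS peak in any list used.

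In the E2F group, the heterodimer partners E2f1 and Dp carried the peaks, and E2f2 and Rbf did not. Dp had 2 conservative TSS peaks and a weak interval that overlapped the second of them. The first (2R:13223214-13223537) had a signal of 187.1, 32.4 in replicate 1 at rank 2767 and 157.3 in replicate 2 at rank 194, in an intron 215 bp upstream of an inner TSS. The second (2R:13223820-13224143) had 88.5, 36.2 at rank 2257 and 50.7 at rank 1443, in an intron 391 bp downstream of a Dp TSS and 480 bp downstream of the TSS of the noncoding gene lncRNA:CR43918. The first was far stronger in replicate 2 and passed the threshold there alone. The overlapping interval, 631 bp downstream, had a signal of 8.41 and no matched peak in either replicate.

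E2f1, which encodes the activating E2F, held 3 conservative peaks, all in introns. The strongest (3R:21641543-21641866), 3211 bp upstream of the nearest TSS of E2f1, had a signal of 187.8, 116.4 in replicate 1 at rank 311 and 68.6 in replicate 2 at rank 863, and it passed the threshold in both replicates. The one 4738 bp downstream of a TSS (3R:21627793-21628116) had 91.9, 53.7 at rank 1148 and 38.1 at rank 2577. The one 2689 bp downstream (3R:21629842-21630165) had 81.2, 27.7 at rank 4111 and 57.8 at rank 1156. All 3 were within the top 5% of both ranked lists, and the strongest was nearer to the TSS of the noncoding gene lncRNA:CR46056 than to one of E2f1.

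A stronger peak stood at an E2f1 start site, yet no thresholded list holds it. Its summit was 23 bp downstream of an inner TSS (3R:21632888-21633211), with a signal of 206.6 in the series' ranked list, 48.8 in replicate 1 at rank 1326 and 162.1 in replicate 2 at rank 182. A neighbouring peak 667 bp upstream (3R:21633578-21633901) had 194.1, 64.1 at rank 874 and 124.7 at rank 293. The authors also gave each peak a score of at most 1000, in lists named for the irreproducible discovery rate, a measure of how well a peak's rank repeats. Both E2f1 peaks scored 1000, whereas the lowest score in the conservative list was 830. On the arms 2235 ranked peaks scored 830 or more, and 2132 of them were in the conservative list, so the 2 E2f1 peaks were among 103 (4.61%) that were left out at a passing score. With such peaks counted, 11 of the 39 genes had a TSS summit, against 10.8% of all protein-coding genes, and E2f1 was the gene added. Why they were left out was not tested. The other ranked peaks of these genes with a signal of 47 or more and in no series thresholded list scored below 830, among them those of fzr at 768, CycB at 757 and Cdk4 at 744.

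**Figure D3:**
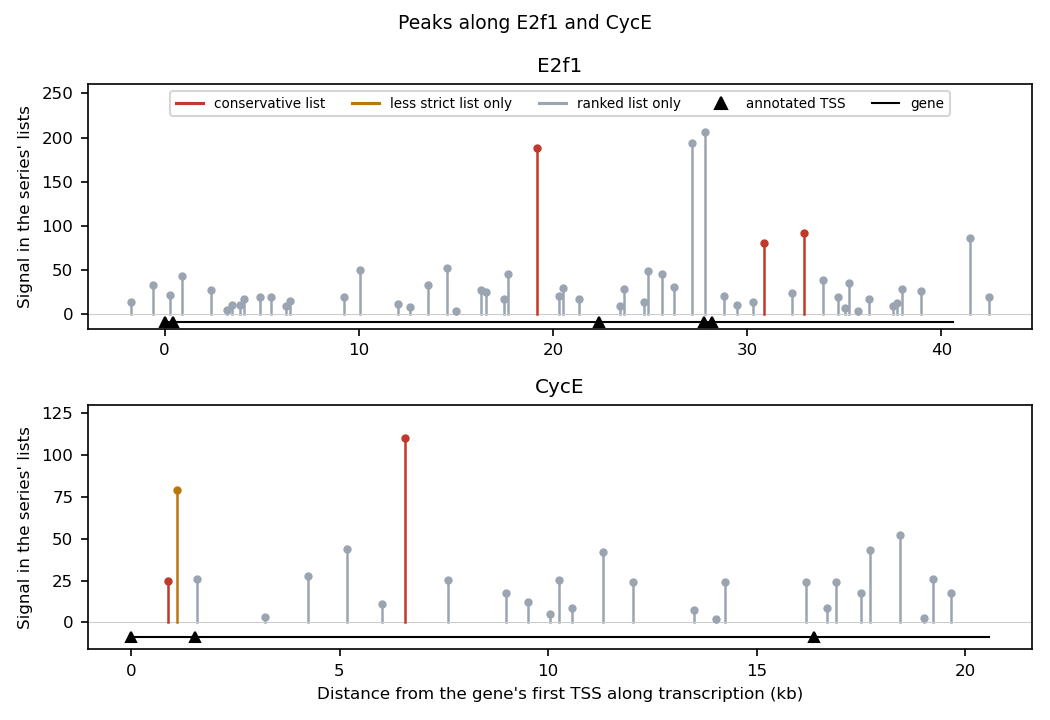
Signal of the peaks in the series' lists along E2f1 (top) and CycE (bottom), by distance in kb from the first TSS in the direction of transcription. Red stems are conservative peaks, brown is in the less strict list only, grey is in the ranked list only, and triangles are annotated TSSs. The 2 tallest stems of E2f1 (206.6 and 194.1), beside its inner start sites, are grey.

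The other members of this group were lower. E2f2, the repressive E2F, had 25.3 in replicate 1 at rank 5482 and 22.4 in replicate 2 at rank 18339. Rbf, the retinoblastoma protein that restrains E2F1, had 15.1 at rank 30539 and 25.5 at rank 11230. Both had their strongest series peak close to a TSS, 26 bp and 3 bp upstream, but neither was in the top 5% of either replicate.

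Of the checkpoint kinases, mei-41 (the fly ATR) had the strongest conservative start-site peak of the 39 genes. It was also the strongest of them in replicate 1, while in replicate 2 the peaks of E2f1 and Dp ranked above it. The peak (X:16391468-16391610) had a signal of 272.7 and rank 202 of the 2167 conservative peaks, with 133.8 in replicate 1 at rank 239 and 146.6 in replicate 2 at rank 219. Both replicates placed it near the top, and both thresholded lists held it. The summit lay in the printed interval 142 bp upstream of mei-41 and 118 bp upstream of TH1, a subunit of the polymerase pausing factor NELF, so the nearest TSS was that of TH1. grp (Chk1), which acts below mei-41, had 13.2 at rank 41463 and 18.6 at rank 32469. lok (Chk2) was intermediate, with 31 at rank 3064 in replicate 1 and 26.9 at rank 9052 in replicate 2.

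The 2 subunits of ribonucleotide reductase, which makes the deoxynucleotides for replication, stood at opposite ends. RnrS, the small subunit, had a peak (2R:11985416-11985739) of signal 252.5 and rank 238 of 2167, with 107.0 in replicate 1 at rank 369 and 135.9 in replicate 2 at rank 249. It passed the threshold in both replicates, 185 bp upstream of RnrS and 430 bp upstream of CG34231. RnrL, the large subunit, had no peak within 500 bp of its TSS in any list used. PCNA, the sliding clamp of the polymerases, had 19.8 at rank 13182 in replicate 1 and 15 at rank 52185 in replicate 2, and no thresholded peak.

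Of the mitotic genes, the spindle checkpoint kinase gene BubR1 and the spindle kinase gene aurA had conservative TSS peaks. The BubR1 peak (2R:5974302-5974625) had 80.1, 39.7 in replicate 1 at rank 1903 and 43 in replicate 2 at rank 1968, 79 bp upstream of the TSS, and passed the threshold in replicate 1. The aurA peak (3R:11962763-11963086) had 68.2, 32.9 at rank 2686 and 41.5 at rank 2100, 199 bp upstream of aurA and 120 bp upstream of CG3281. It passed the threshold in neither replicate alone. polo, the Polo kinase, had 40 at rank 1877 in replicate 1, past the threshold there, and no TSS peak in replicate 2. aurB, the kinase of the chromosomal passenger complex, had 34.9 at rank 2409 and 25.2 at rank 11650. Of the activators of the anaphase-promoting complex, fzr (Cdh1) had 27.3 at rank 4320 and 31.7 at rank 4673, and fzy (Cdc20) had 20.5 at rank 11604 and 33.3 at rank 3845.

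Across roles, the 13 conservative TSS peaks of these genes were mostly of modest height. Their signals ran from 2.76 to 272.7 with a median of 84.1, and 3 of the 13, those of mei-41, RnrS and Dp, exceeded 104.7, the median of the conservative list. The highest conservative signal was 3243.9. Summits lay between 331 bp upstream and 391 bp downstream of the nearest TSS of the gene, and 10 of 13 were upstream. Of all 1149 conservative TSS peaks, 80.6% lay upstream of the nearest TSS. For 8 of the 13 peaks another annotated gene also had a TSS within 500 bp of the summit, compared with 44.9% of all conservative TSS peaks. Of the 8, 2 were at dup, and with protein-coding genes alone the count was 7. The difference from the share over all peaks was not tested.

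**Figure D4:**
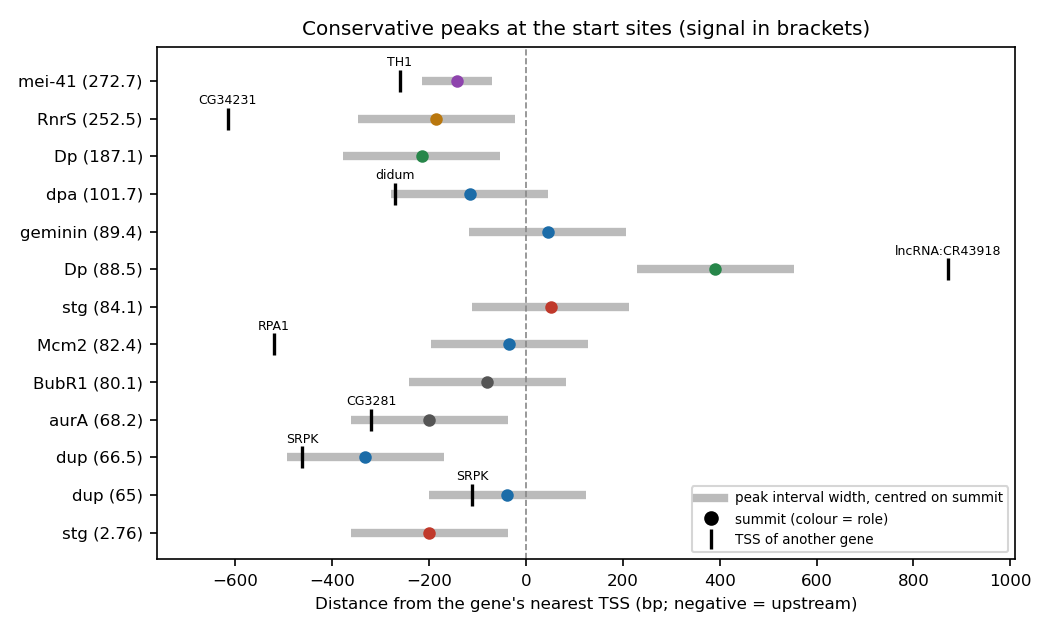
Conservative peaks at the start sites, 1 row per peak in order of signal (in brackets), by distance in bp from the gene's nearest TSS. Grey bars show the interval width centred on the summit, coloured points the summit by role, and black ticks the TSS of another gene. For mei-41, aurA and the upper dup peak the other gene's TSS is nearer to the summit than the named gene's own.

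Shared promoters went with a higher share of called genes throughout the genome. Among protein-coding genes with a divergent neighbour, whose TSS on the other strand lay within 500 bp, 23.0% had a conservative TSS summit, against 5.80% of the others. Of the 39 genes, 14 had such a neighbour, and 5 of these had a summit (aurA, Dp, dpa, dup and mei-41), while 5 of the other 25 had one (Mcm2, stg, BubR1, geminin and RnrS). This split rests on distances between start sites, not on where the summits lay. No conservative Dp summit was within 500 bp of a TSS of Fsn, its divergent neighbour. The Mcm2 and RnrS summits, in contrast, had the TSS of a gene on the other strand within 500 bp. The part of shared promoters in the counts above was not tested.

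Summits inside the genes were few, and those away from a start site were in the longer genes. There were 7 genes (CycE, stg, E2f1, Dp, dpa, dup and geminin) with a conservative summit between their annotated start and end, or 17.9% against 6.31% of all genes. Only CycE, E2f1 and Dp had one more than 500 bp from their own start sites, 7.69% against 3.76% of all genes. For Dp it was only the weak interval of signal 8.41, which had no matched peak in either replicate. E2f1 and CycE are the 2 genes of 20000 bp or more among the 39, and 23.8% of all genes of that length had an inner summit. Dp is among 7 genes of 5000 to 19999 bp, where the share was 8.82%. None of the 30 genes under 5000 bp had an inner summit, and over all genes of that length 0.611% did.

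Motif letters in the promoters, from 250 bp upstream to 50 bp downstream of each TSS, were read beside the peaks. An E2F match was in 11 of the 39 promoters (28.2%) against 4.63% of all protein-coding genes, and 3 of the 11 genes, stg, dpa and dup, had a conservative TSS peak. The DRE was in 8 (20.5%) against 10.2%, and 2 of these genes, mei-41 and BubR1, had a peak. Over all genes, 15.1% of those with an E2F match and 15.6% of those with a DRE had a peak. Motif 7 was in 12 (30.8%) against 12.7%, with a peak at Mcm2, stg, dpa and RnrS, while 19.7% of all genes with motif 7 had a peak. Core promoter motif 1, spelled GGTCACAC, was in 7 (17.9%) against 8.70%. None of these 7 genes had a peak, and 15.6% of all genes with motif 1 had one, so 7 genes are too few to set apart from that share. CGATA was in 24 (61.5%) against 53.1% and the TATA box in 21 (53.8%) against 51.3%, both close to the share over all genes. CAGGTAG, the letters bound by the early activator Zelda, were in 0 of the 39 promoters and in 2.30% of all.

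At the summits themselves, the matches differed by motif. Within 100 bp of the 13 summits, the DRE occurred at 1, that of BubR1, where its centre was 49 bp from the summit, compared with 7.48% of all conservative TSS peaks. E2F matches occurred at 2 summits, with centres 32 bp from the dpa summit and 19 bp from the nearer dup summit, compared with 1.57% of TSS peaks. The TATA box occurred at 6 of the 13 summits, compared with 34.5% of TSS peaks, CGATA at 4, compared with 37.2%, and motif 7 at 3, compared with 11.4%. Motif 1 and CAGGTAG occurred at 0 of the 13, compared with 3.22% and 0.870%. Outside these 13, CAGGTAG lay within 100 bp of the intronic E2f1 summit of signal 91.9. It also lay within 100 bp of the stg summit of signal 65.8, which is in the less strict list alone. Of all conservative peaks on the arms, 1.27% had these letters. At mei-41 the DRE lay 127 bp from the summit. At stg the E2F match lay 286 bp from the nearest conservative summit, that of the weak interval of signal 2.76. It was farther from the summit of the stronger stg peak of signal 84.1. The promoters of CycA, Cdk2, Cdk4, Orc2, Orc5 and PCNA held a DRE with no conservative TSS peak, as in the Orc5 site printed above. A match describes letters only, and neither a match nor its absence shows whether any factor bound.

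Other genes of the same processes were read from a further list of replication, cell cycle, anaphase-promoting complex, checkpoint and mitosis genes. Of its 125 symbols 122 were found, and 14 of these (11.5%) had a conservative TSS summit, near the 10.5% of all protein-coding genes. By process, they were 5 of 34 replication genes, 1 of 24 control genes, 1 of 13 genes of the anaphase-promoting complex, 3 of 11 checkpoint genes and 4 of 40 mitosis genes. The symbols not found were CDC45L, RpA-70 and SA. RPA1, the large RPA subunit named above, was not among the 122, although the conservative Mcm2 summit lay 485 bp from its TSS. The replication count therefore leaves it out. Within the top 5% of both ranked lists were 17 of the 122, against 11.8% of all protein-coding genes. The share in this wider list was lower than among the 39 genes, and the difference between the lists was not tested.

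The strongest of these 14 was PolD2, a subunit of DNA polymerase delta, with a signal of 223.4 in the conservative list, 87 in replicate 1 at rank 525 and 131.1 in replicate 2 at rank 266. tefu, the fly ATM and thus the sister kinase of mei-41, had 147.7, with 56.8 and 90 in the replicates, and nbs of the Mre11 complex had 112.3, with 44.1 and 70.3. Both passed the threshold in each replicate. Cdc16 of the anaphase-promoting complex had 147.1, with 33.6 and 110.6, and tum, a cytokinesis regulator, had 137.6, with 72.5 and 71.1. Top1 (topoisomerase I) had 128.7, with 63.7 and 60.5. The next 4 were chif (the activator of the Cdc7 kinase) with 89.1, Bub3 (the checkpoint partner of BubR1) with 82, Psf1 (a subunit of the GINS helicase factor) with 77.2 and Ctf4 (a replisome adaptor) with 76.9 in the conservative list. Except for Top1 and chif, each of these 10 shared its peak with another gene's TSS.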

How the data were processed

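Chromatin of 2 biological replicates was profiled by ChIP-seq, and peak lists on build dm6 were deposited, per the labels. The deposited text files say that the series' lists derive from alignments of both replicates and a control, and that thresholded lists also rest on an additional file of unstated kind. Aligner, peak caller and their versions were not given in the sources used here. For signal, the value the authors deposited for a peak was used, and depth is unknown, so it carries no interval. The score of each peak is the authors' deposited whole number up to 1000, from lists named for the irreproducible discovery rate.

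Genes and TSSs came from Ensembl annotation 115 (BDGP6, release 6.54) without 5896 transposable element entries, and a peak counted for every gene with a TSS within 500 bp of its summit. Replicate peaks were matched to series peaks where they covered at least 50% of the interval. For genes with no conservative peak, signals and ranks are those of the strongest TSS peak in each replicate's ranked list. With 1 group, no test over samples was possible and no p-value was computed. Whether the replicates came from separate collections of embryos is not stated beyond their being biological replicates. In the series' ranked list used, 10 further columns were left out, as was a second ranked list of the series.

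The genes and lists were chosen with earlier results of these data known. All 39 genes are named, those with a conservative summit in full, with the 10 strongest of the wider list and every gene whose TSS lies within 500 bp of a summit of the 39. The E2f1 peaks of high score were singled out after their values were seen. Alternatives were other lists, each replicate alone, other windows, the nearest TSS alone, interval overlap and other promoter windows. Counting was checked on simulated peaks. Python 3.11.15, NumPy 2.4.6 and matplotlib 3.10.9 were used.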

Additional observations from a re-analysis of the deposited data

How the results depend on the processing

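With 1 replicate's thresholded list in place of the conservative list, the lowest and highest counts of TSS summits were 5 to 8 for all 39 genes. They were 1 to 3 for origin and helicase genes, 0 to 2 for mitotic genes, 0 to 1 for E2F and Rb genes and 8 to 10 for the wider list. Summits in the gene were at 2 to 5 of the 39. Of all protein-coding genes, 8.35% in replicate 1 and 8.78% in replicate 2 had a TSS summit. The shares with a summit in the gene were 5.18% and 5.28%. Only conservative peaks in both replicates' lists left 2 of the 39 genes (5.64% of all genes) and 5 in the wider list. They left 0 in the origin and helicase, cyclin and kinase, mitotic, and E2F and Rb groups. With a summit in the gene they left 1 (3.09% of all genes). Only peaks above the median signal left 3 of the 39 (5.93% of all genes) and 6 in the wider list. They left 0 in the origin and helicase, cyclin and kinase, and mitotic groups. With a summit in the gene they left 3 (3.35% of all genes). Counting the nearest TSS alone gave 0 checkpoint genes, 1 mitotic gene and 8 of the wider list (7.45% of all genes). The cyclin and kinase group had 3 genes in the less strict list (12.3% of all genes), 2 with a window of 1000 bp (12.1%) and 2 by interval overlap (11.1%). The E2F and Rb group had 0 with a window of 200 bp (7.69% of all genes). It had 2 when ranked peaks with a passing score counted (10.8% of all genes), an alternative chosen after seeing the data. Extending genes by 500 bp gave 13 genes with a summit (14.4% of all genes). The top 1% of both ranked lists held 2 of the 39 genes (3.94% of all genes), and with a window of 200 bp 5 peaks were shared. These settings change the peaks or genes counted by construction. The other 66 values stayed within 1.5 times the reported ones. The role groups hold 3 to 12 genes, so 1 peak moves a count, and the depth behind each list is unknown. No paired analysis was possible because there is 1 group only.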
